A study of Mus musculus with 4 samples.

Results

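CTCF peaks that lie at the ends of neighbouring genes were picked out of a genome-wide CTCF map of cultured mouse neurons. A peak was a member when its summit, on chromosomes 1 to 19 of mm10, lay within 1 kb of ends of at least 2 protein-coding genes whose bodies do not overlap. There were 479 such peaks among 33075 on those chromosomes and 33820 in the whole list. The map comes from 2 CTCF immunoprecipitations, labelled as biological replicates, with 2 input libraries from the same kind of culture. The neurons were wild type (WT), taken from the cortex of Swiss-Webster embryos on embryonic day 16 and kept for 13 days in vitro. The treatment field says None for every sample, although the culture text of the labels also mentions etoposide. What was analysed is 1 list of peaks found in both replicates, each with a value per replicate, so every comparison here is between classes of peaks or gene pairs and not between conditions. Peaks are not replicates, no test was made, and the 95% intervals given are exact ones that reflect counting error alone. The label of cortical neurons could not be checked against marker genes, because the list holds no expression values. Sequencing depth cannot be read from the list.

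CTCF is a DNA-binding zinc finger protein that recognises a long motif and halts the cohesin complex, which anchors chromatin loops and separates neighbouring regulatory domains. Mammalian genes often lie close together. In a divergent pair the transcription starts face each other and can share a promoter region, in a tandem pair the finish of a gene precedes the start of the next, and in a convergent pair the finishes face each other. Divergent promoters are typically rich in CpG and often serve housekeeping genes, for example those for mitochondrial, DNA repair and RNA processing proteins.

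Sequence could be read only inside RefSeq promoter windows, so every word shown lies near a gene start by construction. Sequences at the summits of 8 named members are shown for the letters around the summit. Each is the 60 bases on either side of the summit, 5′ to 3′ on the strand of the named gene, from the RefSeq promoter windows of GRCm38.p6. Capitals mark a match to the core words of CTCF motifs, read on either strand. The words are AGGGGGC and its variant AGGTGGC, to which AGAGGGC and also AGATGGC were added. Such a match is a description of the letters and not a bound site. The first 3 come from divergent pairs and the next 3 from tandem pairs with strong peaks. Mettl18 belongs to the weakest member of all, and Hoxa5 to a tandem pair without any of the words. The choice does not show how common the words are. Some named members not shown held a word, such as Mrps16 and Mrpl34. Others held none, among them Slx1b/Bola2 of the 12 strongest, Pold1, Chmp1a, Rpgrip1l/Fto, Yjefn3, Pigs and Ercc8.
Alg5, chr3:54735304-54735424, plus strand: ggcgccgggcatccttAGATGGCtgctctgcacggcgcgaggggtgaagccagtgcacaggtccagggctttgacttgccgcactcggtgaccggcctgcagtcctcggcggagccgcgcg
Car7, chr8:104534597-104534717, plus strand: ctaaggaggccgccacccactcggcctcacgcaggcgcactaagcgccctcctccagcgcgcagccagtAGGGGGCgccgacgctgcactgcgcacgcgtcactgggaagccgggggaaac
Nol9, chr4:152039196-152039316, plus strand: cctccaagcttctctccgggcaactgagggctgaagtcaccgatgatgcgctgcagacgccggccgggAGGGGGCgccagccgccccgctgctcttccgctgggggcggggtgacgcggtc
Adprhl2, chr4:126321714-126321834, minus strand: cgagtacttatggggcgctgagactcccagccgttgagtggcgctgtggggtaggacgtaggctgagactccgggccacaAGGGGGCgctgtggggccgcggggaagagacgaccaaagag
Lsm11, chr11:45944949-45945069, minus strand: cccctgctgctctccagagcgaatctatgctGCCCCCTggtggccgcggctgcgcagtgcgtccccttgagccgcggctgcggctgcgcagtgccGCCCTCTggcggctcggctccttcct
Exosc6, chr8:111056202-111056322, plus strand: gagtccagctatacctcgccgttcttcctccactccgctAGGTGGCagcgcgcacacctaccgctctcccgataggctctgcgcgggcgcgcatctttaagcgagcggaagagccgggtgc
Mettl18, chr1:163994782-163994902, plus strand: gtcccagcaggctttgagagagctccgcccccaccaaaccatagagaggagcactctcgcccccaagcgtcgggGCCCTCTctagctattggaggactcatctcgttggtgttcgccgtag
Hoxa5, chr6:52204605-52204725, minus strand: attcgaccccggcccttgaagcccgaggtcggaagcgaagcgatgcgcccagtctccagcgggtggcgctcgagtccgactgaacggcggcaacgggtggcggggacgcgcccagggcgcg
In Car7 the word begins at base 70 and in Nol9 at base 69, counted from 1 at the 5′ end with the summit at base 61. Lsm11 holds 2 words, both read on the other strand.

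Of the 5986 peaks within 1 kb of any protein-coding gene end, 479 (8.00%, 7.33 to 8.72) were members and 5254 (87.8%) lay at the end of exactly 1 gene. Another 253 lay only at ends of genes that overlap each other and belong to neither class. Of the members, 471 touched 2 genes and 8 touched 3. They reached 928 distinct genes, which is 4.51% of the 20558 protein-coding genes on these chromosomes, while 23.6% had a peak at a single end only. Among the 5073 genes with a protein-coding neighbour within 2 kb, the share with a member was 18.3%. The members formed 480 occupied gene pairs, 6 of them with 2 peaks. Every autosome held members, from 4 on chromosome 18 to 57 on chromosome 7. A clone-named or predicted gene took part in 30 members. Strand was known for 16457 genes (80.1%) and for none on chromosome 18. By strand 206 members were divergent, 119 tandem and 42 convergent, 1 was both divergent and tandem through an additional gene, and 111 had no assignment.

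Values on both sides of the 1 kb limit overlapped. Just inside 1 kb of the farther gene lay the peaks at Stap2/Mpnd (993 bp, joint strength 61.4), Zc3h10/Rpl41 (996 bp, 224), Smim14/Ube2k (998 bp, 283) and Rab3a/Mpv17l2 (999 bp, 109). Just outside lay S100a5/S100a6 (1001 bp, 93.7), Pigs/Unc119 (1004 bp, 124), Fig4/Ak9 (1006 bp, 456), Tmem132a/Tmem109 (1008 bp, 67.4) and Vps26b/Ncapd3 (1010 bp, 102). Joint strength, as deposited by the authors, adds up the −log10 p that the matched peak reached in each of the 2 replicates.

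The first question was which close gene pairs carried CTCF. Of 2989 neighbouring protein-coding pairs with bodies at most 2 kb apart, 480 (16.1%, 14.8 to 17.4) had a summit within 1 kb of both facing ends. Divergent pairs stood highest, with 208 of 626 occupied (33.2%, 29.5 to 37.1). Tandem pairs had 120 of 820 (14.6%, 12.3 to 17.2). Convergent pairs had the lowest share, 42 of 667 (6.30%, 4.58 to 8.42), and pairs of unknown strand lay at 12.6%. The 3 intervals of known orientation did not overlap. The divergent and tandem intervals did overlap when only peaks above the median joint strength (12.1%, 9.69 to 15.0, and 9.15%, 7.26 to 11.3) or peaks stronger than the second replicate column's median were kept. Divergent pairs were above tandem pairs on all 18 chromosomes with strand, and tandem above convergent on 15 of 18.

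Divergent pairs also lay closer together, with a median gap of 119 bp against 873 bp for tandem and 660 bp for convergent pairs, and a wider gap leaves a shorter stretch within 1 kb of both ends. Over all pairs the occupied share was 29.0% at gaps up to 100 bp, 22.9% at 251 to 500 bp, 5.49% at 1001 to 1500 bp and 0.76% from 1501 bp upward to 2000 bp. This fall follows in part from the rule itself. Among pairs at most 500 bp apart, 36.5% of 523 divergent, 29.1% of 251 tandem and 8.24% of 267 convergent pairs were occupied. There the divergent interval (32.4 to 40.8) and the tandem interval (23.5 to 35.1) overlapped, while the convergent interval (5.24 to 12.2) stayed below both. Between 101 and 250 bp the divergent and tandem shares were both 31.6%.

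**Figure D1:**
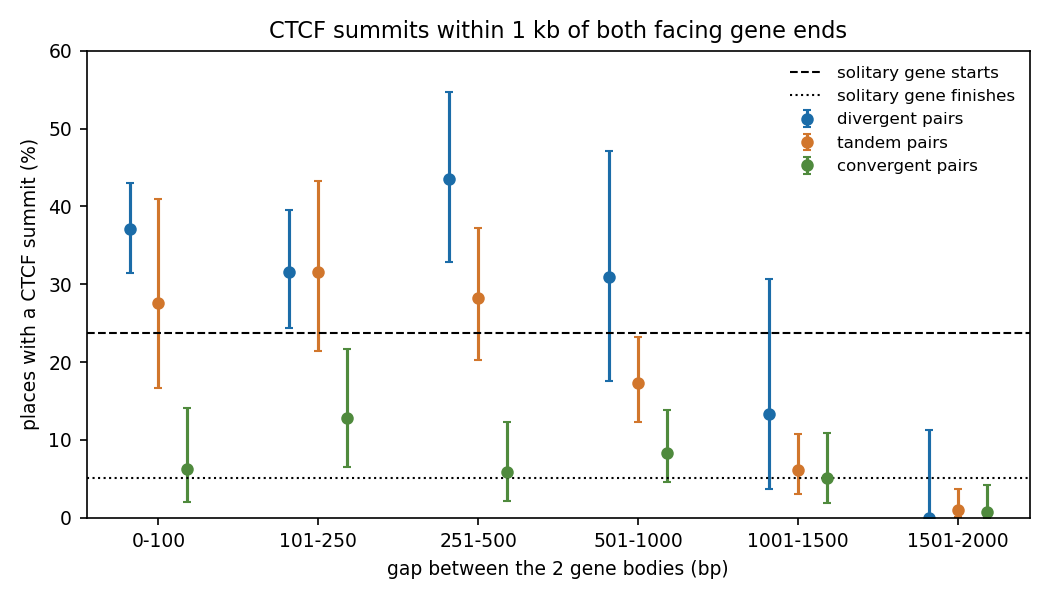
Share of close gene pairs with a CTCF summit within 1 kb of both facing ends (percent, vertical axis) by the gap between the gene bodies in bp (horizontal axis), with exact 95% intervals as bars, for divergent, tandem and convergent pairs. The dashed line marks solitary gene starts (23.8%) and the dotted line solitary gene finishes (5.08%). Convergent pairs lie below the dashed line at every gap, from 12.8% at 101 to 250 bp to 0.78% at the widest gaps. Divergent and tandem pairs up to 500 bp apart lie above the dashed line. A pair is counted near both facing ends and a solitary place near a single end, so points and lines are not per gene end.

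A count per length of common stretch takes the shrinking window into account. Divergent pairs held 199.7 summits per Mb of stretch (173.7 to 228.4), tandem pairs 138.5 (114.9 to 165.5) and convergent pairs 52.7 (38.0 to 71.2). Solitary starts, which have no protein-coding neighbour end nearby, held 121.0 per Mb (116.8 to 125.4) and solitary finishes 25.6 (23.6 to 27.7). Per Mb, the density at divergent pairs was above that at solitary starts beyond counting error. A stretch at a pair lies near both facing ends, and a solitary window near a single end. These densities are therefore not per gene end, and they do not show that a start in a divergent pair carries more summits. The tandem interval overlapped that of solitary starts over all gaps, but at gaps up to 500 bp tandem pairs held 168.3 per Mb (132.1 to 211.2), above it. Convergent pairs lay above solitary finishes and below solitary starts per Mb, with the finishes of both genes near each stretch. The part of the number of gene ends in these differences was not tested. Measured as places with any summit within 1 kb, 23.8% of 12613 solitary starts and 5.08% of 12194 solitary finishes were occupied.

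The next question was where in the pair the summit lay. At 131 of 479 members (27.3%, 23.4 to 31.6) it was in the gap between the genes, and at the rest inside the edge of a gene. The median gap was 191 bp, with a range of 0 to 1936 bp. The deposited interval of the peak, as opposed to its summit, covered both facing ends in 300 members (62.6%). The width of an interval depends on the peak caller, and its median was 1301 bp at members and 1312.5 bp at single-gene peaks.

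Orientation went with position. At the 207 members whose facing pair was divergent, the summit lay between the genes in 26 (12.6%, 8.37 to 17.9), with 92 inside the lower-coordinate gene and 89 inside the higher. At tandem pairs 60 of 119 summits lay between the genes (50.4%, 41.1 to 59.7), and at convergent pairs 18 of 42 (42.9%, 27.7 to 59.0). The gap itself differed among these members, with medians of 99, 346 and 470 bp. At gaps of 251 to 2000 bp alone, the summit was between the genes in 16 of 53 divergent members. It was so in 52 of 78 tandem and 17 of 26 convergent members, so the divergent share was the lowest there too. Gaps were not matched within that range. Of occupied pairs, 37 divergent, 33 tandem and 6 convergent ones had gaps of 251 to 500 bp. At 501 to 1000 bp there were 13, 34 and 13. The part of gap length in this share was not tested. At tandem pairs the summit was nearer the start of the downstream gene in 87 of 119 (73.1%, 64.2 to 80.8), a median of 193 bp from the start and 481 bp from the finish. Over all members the median distance to the nearer facing end was 210 bp.

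**Figure D2:**
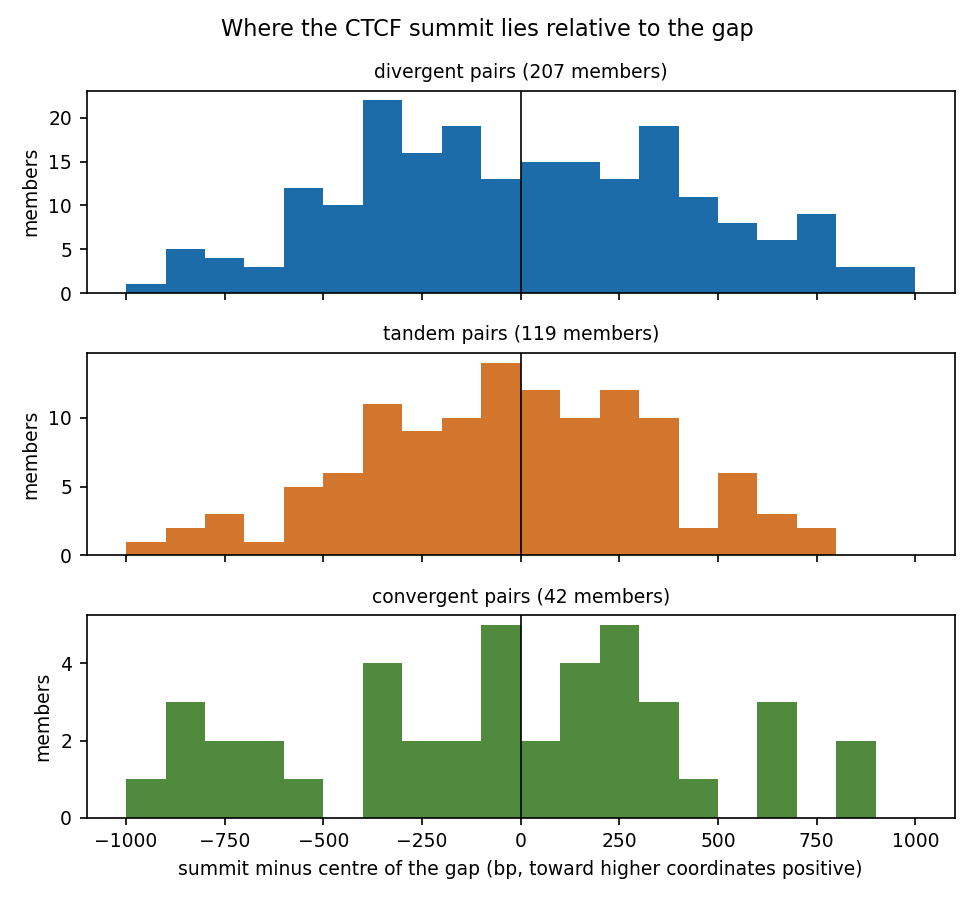
Number of members (vertical axis) by the distance of the CTCF summit from the centre of the gap in bp (horizontal axis, bins of 100 bp), for divergent, tandem and convergent pairs. Summits at the 207 divergent members spread on both sides of the centre without a peak at 0, those of the 119 tandem members gather around it, and the 42 convergent members are few and spread out.

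Strength was read from both replicate columns. The file does not say which labelled replicate a column is, so they are called first and second. Members had a median −log10 p of 45.6 in the first column and 89.2 in the second, against 53.8 and 102.6 at single-gene peaks. The joint medians were 143.9 (120.9 to 165.0) and 165.5 (158.2 to 174.2), a log2 ratio of -0.20. These intervals overlap, and the shared median was below the single one on 12 of 19 chromosomes. The ratio turned to 0.14 when only peaks above the median joint strength of the list were kept, and to 0.13 when any base of the peak could define a class. At the upper quartile members stood at 417 and single-gene peaks at 404. Close to 1 in 5 of both classes were in the top decile of the list by joint strength, 19.8% of members and 19.3% of single-gene peaks.

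Orientation separated the members in strength more than sharing did. Tandem members had medians of 80.5 in the first column and 165.2 in the second. Divergent members had 42.4 and 58.1, and convergent members 35.7 and 126.3. In the joint value tandem members stood at 254.4 (191.0 to 322.2) and divergent members at 105.7 (81.3 to 125.2), a ratio of 2.41 and a log2 ratio of 1.27. Tandem members were above divergent ones in both columns (log2 ratios of 0.92 and 1.51) and on 13 of 18 chromosomes. Convergent members lay at 154.5 (109.0 to 246.7). Members without strand lay at 132.3. The tandem excess came with the number of weak peaks: 73 of 119 tandem members (61.3%, 52.0 to 70.1) were above the median joint strength of the list, against 74 of 206 divergent members (35.9%, 29.4 to 42.9). Among those stronger peaks alone the log2 ratio was -0.17.

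Divergent members were also weaker than single peaks at a gene start. The 3324 single-start peaks had medians of 58.0 and 88.1 in the columns and 155.1 (145.3 to 165.2) jointly, so the divergent joint median was 0.681 of theirs. Convergent members compared with 770 single-finish peaks had 154.5 against 192.9 jointly, and the intervals of these medians (109.0 to 246.7 and 173.9 to 217.6) overlap.

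**Figure D3:**
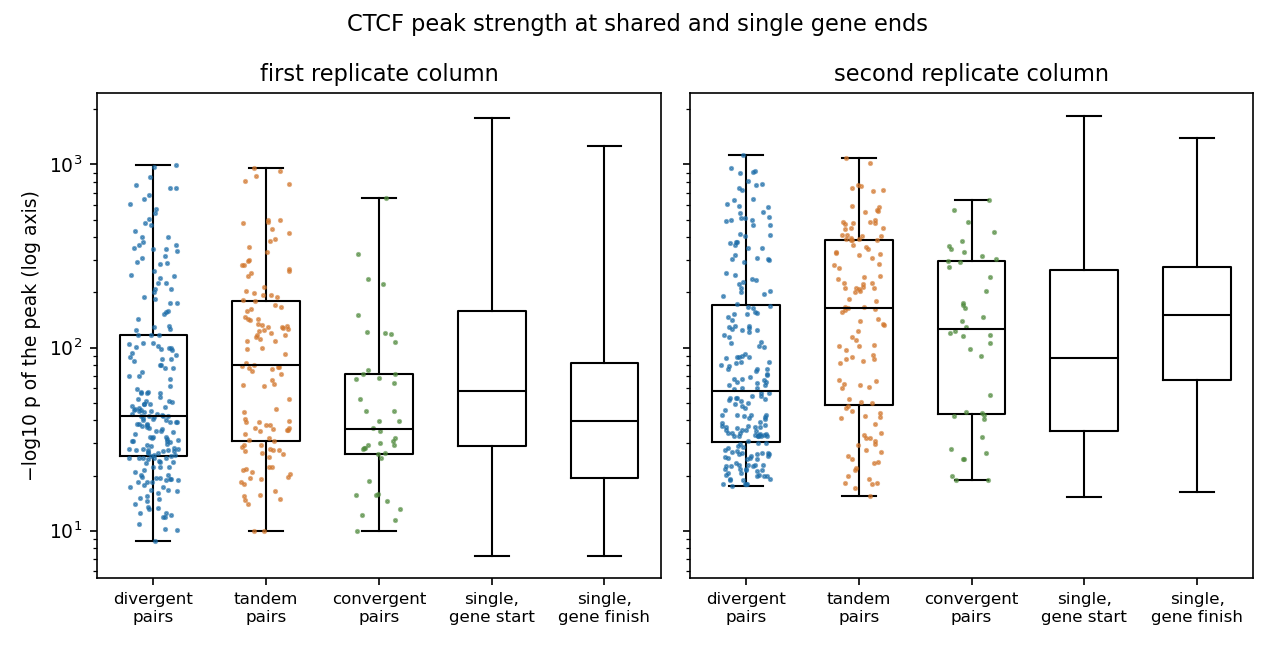
CTCF peak strength as −log10 p (log axis) in the first (left) and second (right) replicate column, for members at divergent, tandem and convergent pairs and for peaks at a single gene start or finish. Boxes show the quartiles and median, whiskers the lowest and highest peak, and dots the single members; the tandem median is the highest of the 5 in both columns (80.5 and 165.2).

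The balance of the columns followed the kind of gene end. Over the whole list 90.7% of peaks were stronger in the second column, but only 355 of 479 members (74.1%, 69.9 to 78.0) and 70.8% of single-gene peaks were. The median log2 ratio of second to first column was 0.42 at members and 0.41 at single-gene peaks. It was 0.23 (0.15 to 0.37) at divergent members and 0.25 (0.22 to 0.28) at single starts. At convergent members it was 1.47 (1.02 to 1.93) and at single finishes 1.74. Tandem members together lay at 0.47, with 0.35 where the summit was nearer the start and 0.83 where it was nearer the finish. Depth and background of each library are not in the list, and their part in this balance was not tested. The largest excess of the first column among members was at Tbc1d10b/Mylpf (84.4 against 32.9), Lrrc42/Hspb11 (77.04 against 33.4) and Golga1/Scai (35.3 against 15.4), of which the first 2 are divergent and the last tandem. A large excess of the second was seen at Tmem39b/Khdrbs1 (14.6 against 221.9) and Mtrf1l/Rgs17 (19.04 against 210.01).

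Within divergent pairs, position and strength went together. The 26 members with a summit between the genes had medians of 184.6 and 269.2 in the columns and 434 jointly (122 to 689). The 181 with a summit inside a gene had 41.0 and 53.2, and 91.0 jointly (79.2 to 119.6). At gaps of 251 to 2000 bp the joint medians were 434 for 16 summits between the genes and 83.7 for 37 inside a gene, with intervals of 106 to 909 and 73.4 to 126 that overlap. At tandem pairs the same classes had joint medians of 289 (162 to 489) and 226 (149 to 322), which overlap. Spacing to other CTCF peaks was shorter at members, with a median of 9300 bp to the nearest other summit against 11936 bp at single-gene peaks. By orientation it was 12386 bp at divergent, 7849 bp at tandem and 6224 bp at convergent members.

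The strongest member of all was at the divergent pair 1110032A03Rik/Fdxacb1 (chr9:50767818-50769246), whose bodies are 1 bp apart. Its values were 972 in the first column and 1120 in the second, rank 28 among all peaks of the list. Exosc8/Alg5 (chr3:54734550-54736352) had 998 and 907. Exosc8 encodes a subunit of the RNA exosome and Alg5 an enzyme of protein N-glycosylation, and the summit lay at the start of Exosc8, 175 bp from that of Alg5. At Mrps12/Sars2 (chr7:28740832-28742671) the values were 775 and 894, and both genes serve mitochondrial translation, as a ribosomal protein and a seryl-tRNA synthetase. Slx1b/Bola2 had 743 and 915, and Slx1b encodes a DNA structure-specific endonuclease. Between the taste receptor gene Tas1r1 and Nol9, a ribosomal RNA processing kinase, the values were 651 and 956, and the summit lay 5 bp from Nol9. Nae1/Car7 had 851 and 739, with the summit in a gap of only 37 bp. Nae1 encodes part of the enzyme that activates NEDD8 and Car7 a carbonic anhydrase. The last divergent pair among the 12 strongest was Exd1/Chp1, with 744 and 813.

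The other 5 of the 12 strongest were tandem. Adprhl2/Tekt2 (chr4:126321054-126323127) had 859 and 1081. Adprhl2 encodes a hydrolase that removes ADP-ribose from proteins, and Tekt2 a tektin of flagella. Mrps16/Cfap70 (chr14:20393032-20394095) had 922 and 1015, with the summit 56 bp inside the mitochondrial ribosomal protein gene Mrps16. Lsm11/Thg1l (chr11:45943269-45945582) had 961 and 772. Lsm11 acts in histone mRNA processing and Thg1l adds a guanosine to histidine tRNA. At Pgls/Niban3 the values were 809 and 714, and Pgls is an enzyme of the pentose phosphate pathway. At Epb41l4b/LOC108168956 they were 779 and 742. All 12 were strong in both columns, with no value below 651.

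**Figure D4:**
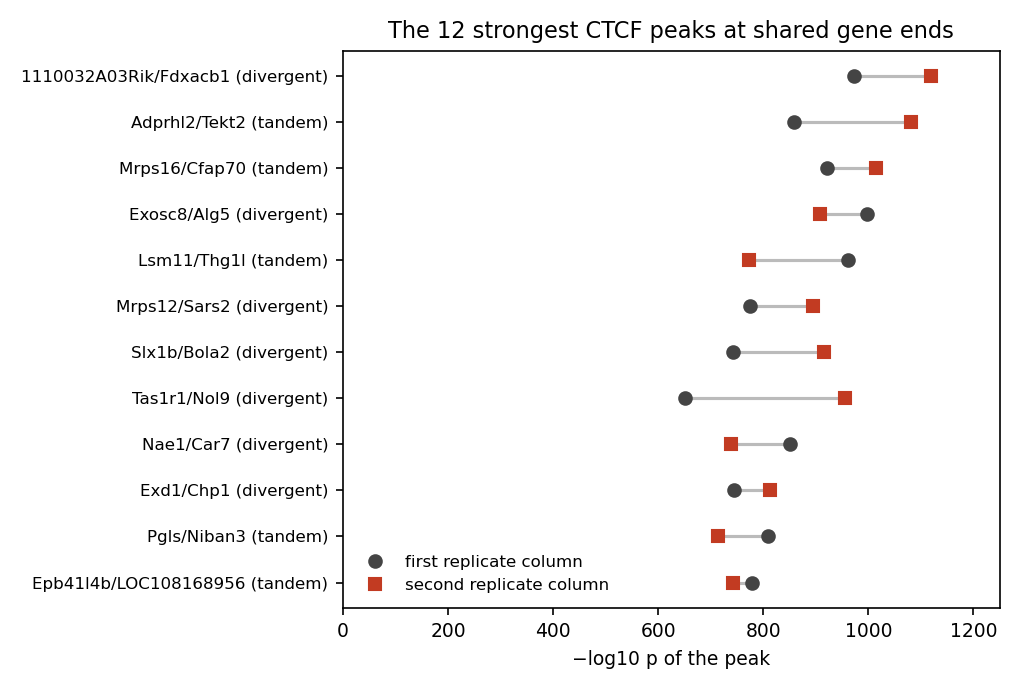
Values of the 12 strongest members as −log10 p (horizontal axis) in the first (circle) and second (square) replicate column, 1 gene pair per row with its orientation. All 24 values lie between 651 and 1120, and 7 of the pairs are divergent and 5 tandem.

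Convergent members reached lower values. The strongest was Git1/Trp53i13 (chr11:77506196-77508855), with 659 and 562. Git1 is a GTPase-activating scaffold protein found at synapses. Cd63/Rdh5 had 67.1 and 638, and Treh/Phldb1 had 150.1 and 486. Cd63 encodes a tetraspanin of endosomes, and at this pair nearly all of the strength came from the second column. At Xrcc6/Snu13, where Xrcc6 encodes the Ku70 repair protein, the values were 52.6 and 360. The weakest convergent member was Hrc/Ppfia3, with 15.7 and 19.9.

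The 5 weakest members had joint strengths from 33.2 to 34.7. They were BC055324/Mettl18 (13.4 and 19.8), Spata1/Gng5 (11.9 and 21.5), Donson/Cryzl1 (15.4 and 18.2), Wdr4/Ndufv3 (12.2 and 21.7) and Adamts13/Cacfd1 (15.6 and 19.1). Wdr4 acts in tRNA methylation and Ndufv3 in respiratory complex I. The peaks at 3 genes were led by Bysl/Gm20517/Med20 (174.4 and 647), followed by Senp3/Tnfsfm13/Tnfsf13 (28.5 and 243.8), 1110065P20Rik/Yrdc/Mtf1 (80.0 and 121.3), Gm45935/Cab39l/Setdb2 (67.1 and 89.9) and Gm20604/Ubr7/Gon7 (69.7 and 71.5). Gm45935 and Setdb2 have the same annotated start, as have Gm20604 and Gon7, so 3 genes need not mean 3 separate starts. Med20 encodes a Mediator subunit and Mtf1 a metal-responsive transcription factor.

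Gaps of 0 bp, where the bodies abut, occurred at Dcst2/Zbtb7b (222.6 and 304), Ears2/Ubfd1 (37.2 and 82.4) and Capza1/St7l (33.7 and 24.9). Among the widest gaps were those of Cpt1c/Prmt1 (1874 bp; 27.5 and 49.8) and Ttc21a/Csrnp1 (1732 bp; 26.2 and 44.5).

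Promoter windows, 250 bases before to 50 after a RefSeq start, were found for 797 member genes in 962 windows. Their median ratio of observed to expected CpG was 0.78 (0.76 to 0.80), against 0.73 for single-end genes, 0.46 for other protein-coding genes and 0.38 for all windows of the table. Median GC content was 61.7% in member windows, 61.3% in single-end windows and 54.7% in those of other protein-coding genes. Any of the 4 core words stood in 40.9% of member windows (37.7 to 44.03), 39.3% of single-end windows, 26.6% of those of other protein-coding genes and 27.6% of all 32851 windows. Among close divergent pairs the share was 42.9% (38.5 to 47.4) with a member and 32.5% (29.6 to 35.4) without. The CpG ratios there were 0.86 and 0.79, and the median GC contents 63.7% and 59.3%. In the 169 windows that held a member summit itself a word stood in 61.5% (53.8 to 68.9), and in 55.7% of 1434 windows that held another summit. The words consist mostly of G and C, and the part of base composition in these shares was not tested. Only 137 members had their summit inside any window, and 23 inside windows of 2 genes, so most summits lay outside the 300 bases read here.

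Gene lists were then counted for members. Of 37 tRNA synthetase genes, 8 (21.6%) had a member, against 4.51% of all protein-coding genes. They included Aars, Ears2, Fars2, Kars, Qars, Sars2 and Vars2. Aars/Exosc6 had values of 262.2 and 328, and Lyrm4/Fars2 42.3 and 79.9. Proteasome genes had 6 of 47 (12.8%), led by Psme3/Aoc2 (162.03 and 450.3) and Ftsj3/Psmc5 (130.7 and 154.6). Respiratory chain and ATP synthase genes had 9 of 77 (11.7%), among them Atp5d/Midn (215.3 and 392), Yjefn3/Ndufa13 (146.2 and 156.2) and Oscar/Ndufa3 (30.8 and 234.3). Cytosolic ribosomal protein genes had 10 of 87 (11.5%), with Rpl36/Lonp1 (604 and 652), Card6/Rpl37 (296 and 319) and Rpl4/Snapc5 (202.8 and 221.3) strongest. Mitochondrial ribosomal protein genes had 6 of 75 (8.00%), which besides Mrps16 and Mrps12 included Abhd8/Mrpl34 (344 and 769).

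These lists are also rich in close neighbours, from 42.5% of cytosolic ribosomal to 55.8% of respiratory genes. Within genes that have such a neighbour, the share with a member was 50.0% of 16 for tRNA synthetases, 27.0% of 37 for cytosolic ribosomal, 26.1% of 23 for proteasome, 20.9% of 43 for respiratory and 16.7% of 36 for mitochondrial ribosomal genes, beside 18.3% over all genes with one. DNA repair and replication genes had 4 of 61 (6.56%), among them Pold1/Nr1h2 (382 and 496), where Pold1 encodes the catalytic subunit of DNA polymerase delta, and Ndufaf2/Ercc8 (32.3 and 17.9). Endosomal sorting genes had 5 of 74 (6.76%), with Chmp1a/Spata33 (290 and 299), Eif2b4/Snx17 (201.1 and 191.6) and Bag1/Chmp5 (106.3 and 106.9) strongest. Within genes that have a close neighbour, the share was 12.9% of 31 for DNA repair and replication. For endosomal sorting it was 20.8% of 24, both beside the same 18.3%.

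Shares over whole families and neuronal lists were lower for several lists, most of which also have few close neighbours. Zfp genes had 6 of 388 (1.55%), with Uckl1/Zfp512b (78.2 and 319.2), Zfp277/Dock4 (50.8 and 54.3) and Zfp672/Sh3bp5l (42.7 and 38.5) strongest. The 1103 olfactory receptor, 349 vomeronasal receptor, 57 clustered protocadherin and 36 synaptic genes had 0 members. Of these, 17, 1, 29 and 8 genes had a protein-coding neighbour within 2 kb, as did 927 of the 928 genes with a member. The clustered protocadherins were not short of such neighbours, with 50.9% of the list. A member lay at 0 of those 29 genes, beside 18.3% over all genes with a close neighbour. That 18.3% pools all gaps and orientations, and neither was matched for this or any other list. Hox genes had 2 of 39 (5.13%, beside 4.51% of all protein-coding genes), Hoxa5 and Hoxa6. Both came through the peak of 182.4 and 204.3 whose sequence is given above. For the 13 Hox genes with a close neighbour the share was 15.4%. Among 30 activity-regulated genes the AP-1 gene Jund had a member (3.33%; Jund/Iqcn, 268.8 and 308), and 2 of the 30 had a close neighbour. Of 533 genes over 300 kb, 13 (2.44%) had a member. Only 44 of the 533 had a close neighbour. Among those the share was 29.5%, beside 18.3% over all such genes, and no interval is given for so few genes. For Zfp genes the same share was 9.68% of 62. The members at long genes were led by Ccdc148/Pkp4 (349 and 247.6), Rpgrip1l/Fto (130.2 and 254.4) and Ap3m1/Adk (117.8 and 156.4). Fto encodes an RNA demethylase and Adk adenosine kinase. Markers of other cells a cortical culture can hold were 2 of 15 for astrocytes, Aldoc/Pigs (14.9 and 110.5) and Idh3a/Acsbg1 (21.0 and 70.2). They were 0 of 14 and 0 of 15 for oligodendrocytes and microglia, beside 4.51% of all protein-coding genes. Close neighbours were present at 4, 2 and 3 of these markers, too few for the counts to set any list apart. A CTCF peak at a marker says nothing of its expression.

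Some divergent pairs are known from textbooks, and only those whose bodies do not overlap could hold a member. Mrps12/Sars2 did. Atm/Npat, Tap1/Psmb9 and Prkdc/Mcm4 had none, with the nearest summit 58063.5, 10073 and 201213 bp from the centre of the gap.

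Non-coding genes were counted at the same places. An lncRNA end lay within 1 kb of 21 members (4.38%, 2.73 to 6.62), against 11.3% of single-gene peaks and 4.72% of peaks at no gene end. A miRNA gene lay near 4 members (0.835%, 0.228 to 2.12), against 0.704% of single-gene peaks and 0.218% of peaks at no gene end. The 4 were Sirt7/Mafg, Kmt2b/Zbtb32, Anxa5/1810062G17Rik and Ache/Ufsp1, named after the count was seen. Both snoRNA and tRNA genes lay near 0 of 479 members, which allows shares of up to 0.767% by the exact interval. The shares elsewhere fall within that range. For snoRNA they were 0.152% of single-gene peaks and 0.244% of peaks at no gene end, and for tRNA 0.285% and 0.214%. The counts of 0 therefore do not set members apart.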

How the data were processed

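The 2 CTCF immunoprecipitations were analysed through 1 deposited list of 33820 peaks. Per the submitters' processing notes, FastQC, Trimmomatic, BWA, SAMtools and MACS2 were used with the builds mm10 and GRCm38.p6. Neither versions and roles nor the MACS2 threshold and the use of inputs are stated: not given in the sources used here. Deposited −log10 p values for both replicates, their sum (checked in all 33820 rows) and the −log10 of the irreproducible discovery rate (at most 0.05) were made by the authors. The deposited score is a rescaled form of that rate and was not used for results. The layout is that of peaks called per replicate and then joined. Values depend on depth, which is unknown.

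The members and lists were chosen with earlier results of these data known. Summits were set against RefSeq gene bounds, leaving out 348 genes placed on scaffolds. Strand came from the RefSeq promoter table. Medians have exact order-statistic intervals, shares Clopper-Pearson intervals and densities Poisson intervals. Named pairs were the 12 strongest members, the 3 strongest and the weakest per orientation, the 5 weakest, the 5 strongest at 3 genes, the 3 shortest and 3 longest gaps, the 3 strongest per gene list, the 3 largest excesses of each column, 5 peaks on either side of the 1 kb limit and textbook pairs. A few more pairs were named, with their values in view, to complete small counts. Not every pair chosen this way is reported here. Alternatives were windows of 500 bp and 2 kb, a rate of 0.01, peaks above the median strength, any base of the peak, no predicted genes, narrower gaps and each replicate column. The class assignment was tested on simulated data. Software was Python 3.11.15 with scipy 1.17.1, pandas 2.3.3, matplotlib 3.10.9 and numpy 2.4.6.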

Additional observations from a re-analysis of the deposited data

Results flagged for a closer look

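Outside the chromosomes of the rule, 5 of 109 gene-end peaks on chromosome X, among 729 peaks there, lay at ends of neighbouring genes (4.59%, exact 95% interval 1.51 to 10.4), beside 8.00% of gene-end peaks on chromosomes 1 to 19. They stand here because no comparison of the report uses that chromosome. They were Fam90a1b/Apoo (281.4 and 323 in the replicate columns), Idh3g/Ssr4 (63.1 and 81.0), Ubl4a/Gm44504/Slc10a3 (45.8 and 17.1), Gla/Hnrnph2 (18.03 and 37.7) and Awat2/Igbp1 (15.8 and 39.7). Gla encodes alpha-galactosidase A and Idh3g a subunit of a mitochondrial isocitrate dehydrogenase.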

How the results depend on the processing

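No paired analysis was possible because the data are 1 list, its replicate columns are not tied to labelled replicates, and no result comes from a test. Intervals cover counting error only, and depth per library is unknown. Of 77 values under alternatives, 38 stayed within their interval, 35 moved and 4 changed sign; stricter peak sets lower every occupied share by construction.

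The occupied share of close pairs was 13% with windows of 500 bp, 20.5% with 2 kb, 12.4% at a discovery rate of 0.01, 7.36% for peaks above the median joint strength, 25.9% for any base of the peak, 22.5% at gaps up to 1000 bp and 26.4% up to 500 bp. Keeping peaks above the median of a single replicate column gave 6.52% to 10.6%. For divergent, tandem and convergent pairs the shares were 22.5%, 12.3% and 3.08% with 500 bp; 36.4%, 19.2% and 12.6% with 2 kb; 23.8%, 12.3% and 4.95% at 0.01; 12.1%, 9.15% and 3.00% above the median joint strength; and 40.6%, 26.0% and 14.1% for any base. By single columns they ran from 10.2% to 21.6%, 8.29% to 11% and 3.00% to 3.45%. The order of the 3 shares was the same in each of these settings, but the divergent and tandem intervals overlapped in the setting by joint strength and in that by the second column (7.96 to 12.9 and 6.5 to 10.4).

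The log2 ratio of joint strength, members against single-gene peaks, was -0.20 and turned to 0.14 above the median joint strength and 0.13 for any base; divergent members against single starts gave -0.55. Tandem against divergent, an analysis added after the data were seen, gave 1.27, fell to 0.80 at 0.01 and turned to -0.17 above the median joint strength, a setting that cuts on the value compared. The column balance, members minus single-gene peaks, was 0.01 and turned to -0.053 above the median joint strength. The cause of these changes was not tested. The share of gene-end peaks that were members was 6.25% with 500 bp, 11.6% with 2 kb and 10.8% for any base. Summits between the genes were 31.8% with 2 kb and 36.9% above the median joint strength, and windows with a core word 44.9% with 500 bp.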

Other observations

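Peaks at ends of overlapping neighbours, which the rule leaves out, numbered 253, with a joint median of 134.9 (113.5 to 188.5) and column medians of 55.0 and 83.0. Their density over the windows within 1 kb of ends was 133.0 per Mb, beside 128.3 at shared and 76.4 at single ends of non-overlapping genes. Single windows lie near 1 gene and the others near 2 or more, so these densities are not per gene end. Among textbook divergent pairs whose bodies overlap, a summit with a joint strength of 103 lay 269 bp from the centre of the overlap of Col4a1 and Col4a2, which encode basement membrane collagens.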
